A study of Macaca mulatta with 7 samples.

Results

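The histone genes of rhesus macaque (Macaca mulatta) sperm RNA were taken from the gene table by symbol. Every gene whose symbol begins with HIST1H to HIST4H, H1F, H2AF, H2BF or H3F was a member, which gave 82 of the 18284 genes. Of these, 62 are replication-dependent histones, 11 are replacement variants and 9 are histones of the germ line. Total RNA was sequenced from sperm cells purified on a PureSperm 40/80 density gradient, with 4 libraries labelled Control and 3 labelled Maltreated. The ages ran from 5.72 to 5.92 years in Control and from 5.67 to 5.78 years in Maltreated, and no strain, allele or agent is named in the labels. The series title sets the comparison in the question of what stress in early life leaves in germline RNA. The labels do not say what the maltreatment was, nor whether each library is 1 animal, although each has an age of its own. The p-values therefore measure the spread between these libraries.

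Histones are the proteins around which nuclear DNA is wound. Replication-dependent histone genes lie in clusters, mostly lack introns, and give mRNAs that end in a stem-loop without a poly(A) tail and are made in S phase, when DNA is copied. Replacement variants are made throughout the cell cycle from single genes, most of them with introns and polyadenylated mRNA, and enter chromatin without replication. In the male germ line a further set of histones is made in spermatocytes and spermatids, before transition proteins and then protamines displace most histones from sperm DNA. Mature sperm do not transcribe, so any RNA of their own making is carried over from earlier stages.

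Sense counts, from reads on the gene's own strand, came to between 5316383 and 30715268 per library, the highest in Maltreated 1. Levels are given in CPM, the sense count scaled to all sense counts of the library, and values per library are listed in the order of their numbers, Control 1 to 4 and Maltreated 1 to 3. The sperm markers were high in all 7 libraries: PRM2, a protamine, stood between 29233 and 72127 CPM and TNP1, a transition protein, between 4670 and 9130 CPM. The 13 leukocyte markers in the table summed to 709 CPM in Control 4 and 1038 CPM in Maltreated 3, against 6.50 to 56.2 CPM in the other 5 libraries. The 9 markers of epithelium and accessory glands summed to 296 CPM in Control 2 and to between 6.51 and 31.8 CPM in the others. The 10 markers of earlier germ cells summed to between 331 and 526 CPM. The 9 markers of testis somatic cells summed to between 22.1 CPM in Maltreated 3 and 95.2 CPM in Control 4. Only 1 of these 9, the Leydig cell gene INSL3, had no count in any library. Correlations of log2 CPM between libraries of 1 group ran from 0.639 to 0.864 across genes, which are not independent replicates.

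All 82 histone genes had sense counts, 55995 in all, but few of them carried most. Histone RNA made up 0.0578% of the sense counts in Control 4, the lowest library, and 0.0976% in Control 3, the highest. As a summed level this was 661, 822, 976 and 578 CPM in the Control libraries and 778, 641 and 762 CPM in the Maltreated libraries. The Maltreated libraries lay within the range of the Control libraries. The members with a sense count numbered 37 in Control 4, the shallowest library, and 81 in Maltreated 1, the deepest. Only 21 members had a sense count in all 7 libraries, 34 had fewer than 50 sense counts over all libraries together, and 5 had fewer than 10. Those 5 were H2AFY2, H2BFWT, HIST1H2BF, HIST1H3B and HIST2H2AB.

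The replacement variants took the largest share of histone counts, although they are only 11 of the 82 genes. Their sum was 366 ± 78.3 CPM (SD, n = 4) in Control sperm and 368 ± 51.5 CPM (SD, n = 3) in Maltreated, which was between 43.0 and 56.5% of histone counts in the 7 libraries. The 62 replication-dependent genes summed to 209 ± 71.1 CPM (SD, n = 4) and 197 ± 19.8 CPM (SD, n = 3), and the 9 germ-line genes to 184 ± 41.3 CPM (SD, n = 4) and 162 ± 17.2 CPM (SD, n = 3). The differences between the group means of the 3 classes were smaller than the SD of the Control libraries. In these bulk samples fewer cells of a type and less RNA per cell cannot be told apart.

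**Figure D1:**
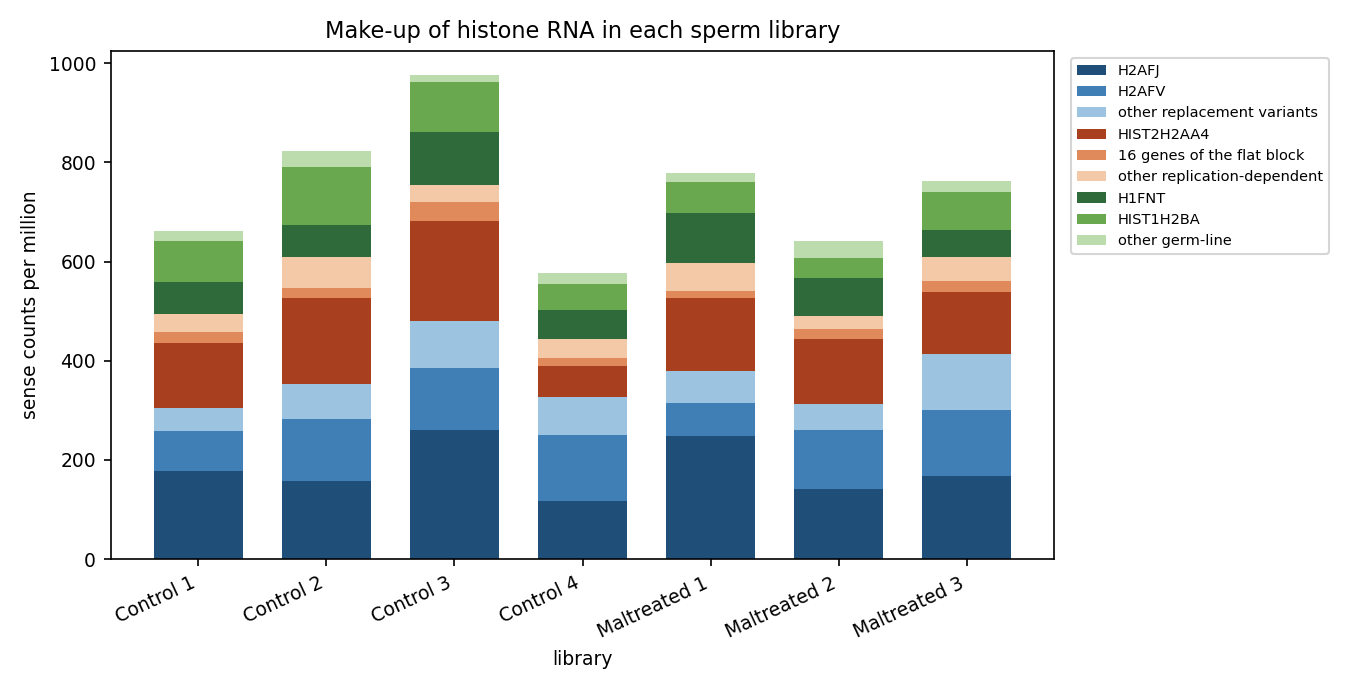
Summed level of the histone genes in CPM (sense counts) in each library, stacked by gene or group of genes (blue for replacement variants, red for replication-dependent genes, green for germ-line genes). H2AFJ, HIST2H2AA4, H2AFV, HIST1H2BA and H1FNT fill most of every bar, and the 3 Maltreated bars (641 to 778 CPM) stand within the range of the 4 Control bars (578 to 976 CPM).

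H2AFJ, an H2A variant made outside DNA replication, had the highest mean CPM of all members over the 7 libraries, a value not scaled to gene length, and ranked 958 of 18282 genes. It lies at chr12:15407803-15412125 on the plus strand, in the coordinates of the deposited files. Its level was 178, 157, 259.9 and 116 CPM in the Control libraries and 249, 142 and 168 CPM in the Maltreated libraries. Control 3 and Maltreated 1 were high, Control 4 was low, and the groups overlapped. HIST2H2AA4 stood above it in Control 2, at 172 CPM, and H2AFV in Control 4, at 134 CPM. The fitted log2 fold change, always given as Maltreated over Control, was 0.04 ± 0.35 (SE). Its reads covered only 12.98 to 16.7% of the 4323 annotated bases, or 561 to 720 bases, in all 7 libraries.

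H2AFV encodes a form of H2A.Z, the H2A variant placed at promoters and enhancers by dedicated remodelling complexes. It stood at 79.6, 126, 126 and 134 CPM in the Control libraries and at 66.4, 119 and 132 CPM in the Maltreated libraries. One library of each group, Control 1 and Maltreated 1, was low and the other 5 lay close together, so that the groups overlapped (log2 fold change -0.17 ± 0.34, SE). H2AFZ, which encodes the other form of H2A.Z, was far lower: per kilobase of exon the mean level was 27.4 CPM for H2AFV and 1.02 CPM for H2AFZ. The sense counts of H2AFZ, 85 in all, were 9, 11, 0 and 0 in the Control libraries and 37, 0 and 28 in the Maltreated libraries, so it was seen in 4 of 7 libraries.

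The sense reads of H2AFV (chr7:63714959-63737828, plus strand) were not spread over its 5 exons. Exon 2, of 77 bases, held 24.1 to 41.8% of them and exon 3, of 113 bases, 54.4 to 65.3%. The last exon, of 3607 bases, held 0 to 2.04%, with a median of 0.710%. In Control 1, for example, exon 2 had 383 and exon 3 had 411 counts per 100 bases, exon 4 had 9.30 and exon 5 had none. H2AFZ has exons 2 to 4 of the same lengths, 77, 113 and 129 bases, which held 4, 30 and 19 of its counts. The pattern of H2AFV was present in both groups, as the plot of counts by exon shows.

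**Figure D2:**
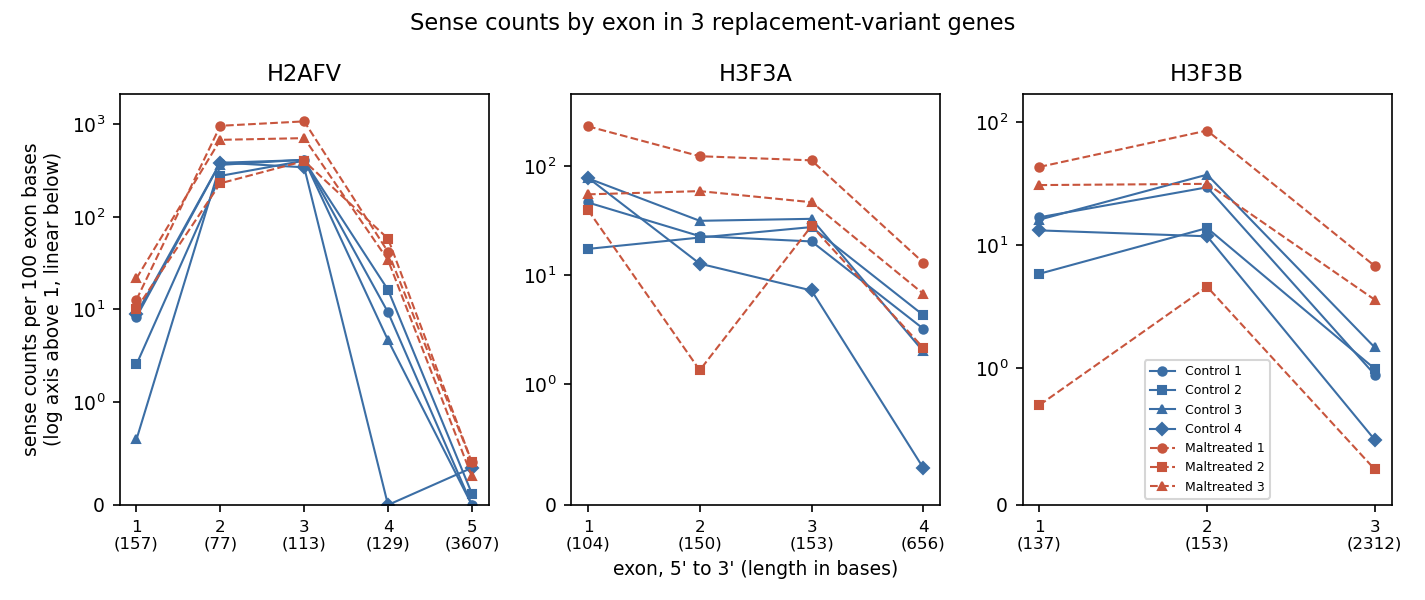
Sense counts per 100 exon bases (log axis above 1, linear below) against exon number from 5' to 3', with exon length in bases, for H2AFV, H3F3A and H3F3B in the 4 Control (blue, solid) and 3 Maltreated (red, dashed) libraries, not scaled to depth. Exons 2 and 3 of H2AFV stand far above its exons 1, 4 and 5 in all 7 libraries, and the last exon is the lowest per base in H3F3A and H3F3B except in exon 2 of H3F3A in Maltreated 2.

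H3F3A and H3F3B are separate genes for the same H3.3 protein, the H3 variant that replaces H3 outside replication. H3F3A stood at 13.6, 21.9, 31.7 and 21.3 CPM in the Control libraries and at 22.2, 16.2 and 24.3 CPM in the Maltreated libraries. The Maltreated values lay inside the Control range, and the log2 fold change was -0.11 ± 0.54 (SE). H3F3B stood at 9.14, 9.41, 18.8 and 8.84 CPM in Control and 11.2, 2.27 and 16.2 CPM in Maltreated sperm. Control 3 was the highest and Maltreated 2 the lowest library, and the log2 fold change was -0.28 ± 0.84 (SE). Per kilobase of exon H3F3A had 20.3 CPM and H3F3B 4.17 CPM on average. The first 3 exons of H3F3A held a median of 35.8, 25.4 and 26.3% of its counts, and its last exon, of 656 bases, held 14%. In H3F3B the last exon, of 2312 bases, held 42.9%. That exon was covered over 6.36 to 19.0% of its length in the Control libraries and over 100, 100 and 36.7% in the Maltreated libraries. Its length weighs on the per-kilobase value of H3F3B, so the gap to H3F3A depends on annotated lengths.

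H3F3C is listed as a single exon of 410 bases at chr6:30543824-30544233, between MAMU-G and MAMU-A in the deposited annotation, genes of the major histocompatibility complex. It stood at 0.508, 3.07, 4.50 and 9.22 CPM in the Control libraries and at 5.14, 7.95 and 4.58 CPM in the Maltreated libraries. Its exon was fully covered on the sense strand in all 7 libraries, also in Control 1 with 5 counts. Antisense counts, those of reads on the opposite strand, were 318 over all libraries against 354 sense counts. These antisense counts, on the plus strand, were 33, 4, 3 and 93 in the Control libraries and 80, 11 and 94 in the Maltreated libraries. The nearest exon of MAMU-A, a gene on that strand, lies 9.05 kb away. The plus-strand counts of this exon alone were 28, 2, 8 and 93 and then 76, 11 and 118. These are counts not scaled to depth: in CPM the antisense level of H3F3C was 17.5 in Control 4 and 8.79 in Maltreated 3, and at most 3.35 in the other libraries. Control 4 and Maltreated 3 are the libraries rich in leukocyte RNA. The part of leukocyte RNA in this was not tested.

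H2AFX encodes the variant that is phosphorylated at DNA breaks and over the sex chromosomes in meiosis. Its sense counts were 33, 26, 23 and 2 in the Control libraries and 65, 0 and 34 in the Maltreated libraries. Control 4 and Maltreated 2 were nearly or wholly empty, and the log2 fold change was -0.85 ± 1.47 (SE). The 2 counts of Control 4 were listed with a cover of all 1582 bases.

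H2AFY and H2AFY2 encode the macroH2A proteins, H2A variants with a large extra domain. H2AFY stood at 16.7, 24.8, 30.7 and 16.6 CPM in the Control libraries and at 17.8, 20.8 and 47.9 CPM in the Maltreated libraries, with Maltreated 3 the highest (log2 fold change 0.32 ± 0.55, SE). This level rests on repeated entries: the gene has 36 exon entries but 12 distinct exons, and its 1759 sense counts became 496, and its mean level 7.16 CPM, when each distinct exon was counted once. H2AFY2 had 8 sense counts in all.

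H1F0 encodes the linker histone of non-dividing, differentiated cells and H1FX another linker histone variant. H1F0 stood at 1.62, 2.17, 1.83 and 0 CPM in the Control libraries and at 2.31, 1.95 and 11.2 CPM in the Maltreated libraries. Its log2 fold change, 1.77 ± 1.36 (SE), was the largest among the tested histone genes and was 0.59 without Maltreated 3. H1FX stood at 1.93, 1.99, 2.67 and 20.1 CPM in Control and at 2.21, 1.95 and 3.55 CPM in Maltreated sperm. Its log2 fold change of -1.39 ± 1.19 (SE) was 0.16 without Control 4. H1F0 was high in Maltreated 3 and H1FX in Control 4, the libraries with leukocyte marker sums of 1038 and 709 CPM. Each was high in only 1 of these 2: H1F0 stood at 0 CPM in Control 4 and H1FX at 3.55 CPM in Maltreated 3. Without both of these libraries the log2 fold changes of H1F0 and H1FX were 0.18 and -0.08. The part of leukocyte RNA was not tested.

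**Figure D3:**
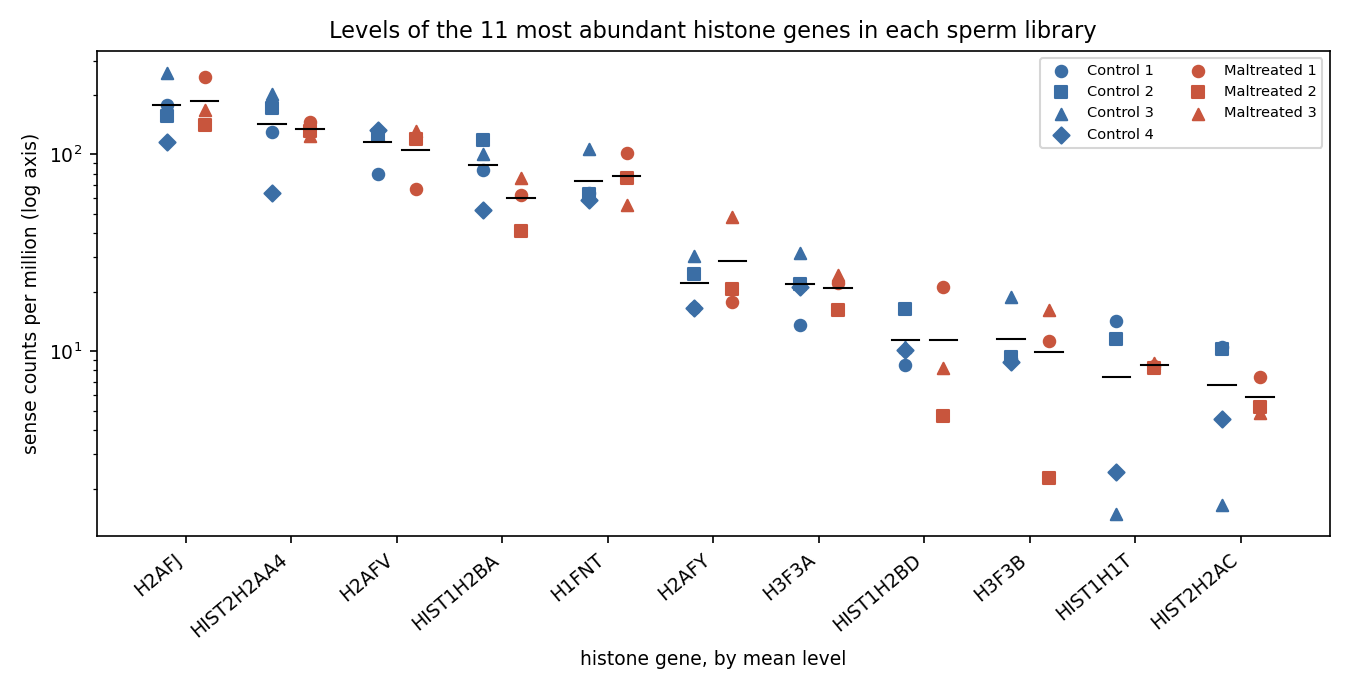
Level (CPM of sense counts, log axis) of the 11 histone genes with the highest mean, in Control (blue) and Maltreated (red) libraries, with 1 symbol per replicate number and a bar at each group mean. Blue and red symbols are interleaved, and the 5 genes on the left stand at 40.9 CPM or more in every library, a level that the other 6 pass only once, with H2AFY at 47.9 CPM in Maltreated 3.

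Among the germ-line histones, H1FNT and HIST1H2BA held 11443 of 12998 sense counts. HIST1H2BA encodes TH2B, the H2B that replaces the somatic form in spermatocytes, and was fully covered in 6 of 7 libraries. Its level was 83.8, 118, 101 and 52.1 CPM in the Control libraries and 62.2, 40.9 and 76.3 CPM in the Maltreated libraries. The 3 Maltreated libraries lay below 3 of the 4 Control libraries, and Control 4, at 52.1 CPM, lay among them. The group means were 88.8 ± 28.2 CPM (SD, n = 4) and 59.8 ± 17.8 CPM (SD, n = 3). The log2 fold change was -0.62 ± 0.40 (SE), with an unadjusted p of 0.152 and an adjusted p of 0.999 by edgeR's quasi-likelihood test with Benjamini-Hochberg adjustment. Without Control 4 it was -0.82, with an unadjusted p of 0.0329 and an adjusted p of 0.999 by the same test. Over all the alternative fits its log2 fold change ran from -0.97 to -0.44. The unadjusted p of 0.0329 was the smallest of these fits. The largest, by the same edgeR test without Maltreated 2, was 0.345.

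HIST1H2AA, the gene of the H2A partner TH2A, lies head to head with HIST1H2BA (chr6:26257305-26257699, minus strand, and chr6:26258102-26258533, plus strand). It had 398 sense counts against 5340 for HIST1H2BA, and per kilobase 15.98 against 177 CPM. Its level was 1.83, 10.1, 4.83 and 0 CPM in the Control libraries and 4.10, 17.7 and 5.61 CPM in the Maltreated libraries. Maltreated 2, the lowest library for HIST1H2BA, was the highest for HIST1H2AA. The log2 fold change of 1.11 ± 1.33 (SE) was 0.13 without Maltreated 2 and 2.00 without Control 2.

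H1FNT encodes the spermatid linker histone H1T2, which takes part in the condensation of the sperm head. It stood at 64.0, 63.1, 107 and 58.5 CPM in the Control libraries and at 101, 75.6 and 55.5 CPM in the Maltreated libraries. Control 3 and Maltreated 1 were high, and the groups overlapped (log2 fold change 0.07 ± 0.39, SE). HIST1H1T, the linker histone of spermatocytes, stood at 14.2, 11.6, 1.499 and 2.45 CPM in Control and at 8.46, 8.28 and 8.70 CPM in Maltreated sperm. The Maltreated values were close to each other and lay inside the Control range (0.14 ± 0.98, SE). HIST1H1T had 630 sense counts and no antisense count.

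H1FOO, the linker histone of oocytes, had 253 sense counts, and its 5 exons were fully covered in 6 of 7 libraries. That cover can rest on few counts: in Maltreated 2 all 1005 bases were listed as covered with 5 counts, 1 on each exon. Its level was 2.94, 3.98, 0 and 19.9 CPM in the Control libraries and 1.76, 0.812 and 3.46 CPM in the Maltreated libraries. Control 4 alone was high, and the log2 fold change of -1.76 ± 1.54 (SE) was -0.28 without it. Without Control 4 and Maltreated 3, the libraries rich in leukocyte RNA, it was -0.82. The part of that RNA was not tested. In Control 4 exon 3, of 333 bases, held 96.2% of the counts, and exons 1, 2, 4 and 5 had 1 count each, also with full cover.

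The remaining germ-line genes were low. H2AFB3, the only gene of the H2A.B variants named in the table, lies within the span of F8 on chromosome X and had 1, 23, 25 and 0 sense counts in the Control libraries and 54, 41 and 10 in the Maltreated libraries. Its log2 fold change was 0.56 ± 1.6 (SE), and -0.68 without Maltreated 2. H2BFM, an X-linked H2B, had 0, 0, 21 and 0 counts in Control and 37, 1 and 33 in Maltreated sperm. The 21 counts of Control 3 were 7 on each of its 3 exons, and the 33 of Maltreated 3 were 11 on each. H2BFWT, the other X-linked H2B, had 4 counts in Control 2, 1 in Maltreated 1 and none elsewhere. HIST3H3, the testis H3 gene known as H3t, had 3, 2, 0 and 0 counts in Control and 18, 0 and 0 in Maltreated sperm.

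The replication-dependent class was dominated by 1 gene. HIST2H2AA4, an H2A gene at chr1:123794970-123795504 on the minus strand, held 10438 of the 15431 sense counts of the 62 genes, and 53.6 to 73.7% of them in each library. Per kilobase of annotated exon it was the highest of all 82 members, at 259 CPM, ahead of HIST1H2BA, H1FNT with 61.1, H2AFJ with 41.9 and H2AFV. This order depends on annotated lengths. Of H2AFJ only 561 to 720 of 4323 bases were covered, and most counts of H2AFV, of 4083 bases, lay on exons of 77 and 113 bases. The level of HIST2H2AA4 was 130.5, 172, 203 and 63.4 CPM in the Control libraries and 147, 131 and 125 CPM in the Maltreated libraries. The Maltreated values lay inside the wider Control range, with Control 4 the lowest (log2 fold change -0.11 ± 0.39, SE). Its 535 bases were covered in full in 6 libraries and to 77.0% in Control 4. Only 80 antisense counts stood against its sense counts, 0.761% of the sum of both. In human this gene has a near-identical copy, and replication-dependent genes of 1 family have very similar coding sequences. The sources used here do not state how reads with several matches were assigned, so levels of single genes in this class are uncertain.

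The other 61 replication-dependent genes held 4993 sense counts. HIST1H2BD, an H2B gene with 2 exons, was the highest of them with 1064. It stood at 8.53, 16.5, 10.5 and 10.2 CPM in the Control libraries and at 21.3, 4.71 and 8.23 CPM in the Maltreated libraries. The highest and the lowest library were both Maltreated (log2 fold change -0.01 ± 0.78, SE). Exon 1 held 98.9 to 100% of its counts. HIST2H2AC, a second H2A gene of chromosome 1, had 10.6, 10.3, 1.67 and 4.51 CPM in Control and 7.46, 5.19 and 4.86 CPM in Maltreated sperm (-0.24 ± 0.95, SE).

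HIST1H1C, a somatic linker histone, had 32, 4, 0 and 2 sense counts in the Control libraries and 102, 14 and 48 in the Maltreated libraries. Its 2 exon entries overlap each other, and 1 of them alone held 102 of the 202 counts, so reads on the shared bases were counted on both. Its log2 fold change was 1.52 ± 1.43 (SE) and 3.15 without Control 1. By family, the 5 linker histone genes of the class held 498 sense counts, the 15 H2A genes 11925, the 17 H2B genes 1874, the 11 H3 genes 404 and the 14 H4 genes 730. H4 was highest in Control 4, at 17.1 CPM, and H3 in Control 3, at 8.996 CPM.

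In the histone cluster of chromosome 6, 16 neighbouring genes from HIST1H2BL to HIST1H2BO (chr6:28163017-28246443) shared a common lowest count. The region spans 83.4 kb, its genes lie on both strands, and each of its genes has 1 exon entry. In Control 3 the plus-strand count was exactly 9 in 15 of the 16 entries and the minus-strand count exactly 11 in 14 of them, whatever the strand of the gene. In Maltreated 1, the deepest library, only 5 and 4 of the 16 entries stood at the lowest count. In Control 1 the lowest counts were 7 and 9 on the plus and minus strand, in Control 2 they were 4 and 4, in Maltreated 1 they were 6 and 10 and in Maltreated 3 they were 6 and 8. In Maltreated 2 they were 0 and 3, and in Control 4 they were 0 and 0. Wherever the lowest count was above 0, all 16 entries were covered over their full length. The nearest exon entries outside belonged to ZNF184, at 351 kb on one side, and OR2B6, at 25.2 kb on the other. These single entries, not the whole genes, had counts of 0 to 10 and 0 to 2 per strand and library.

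**Figure D4:**
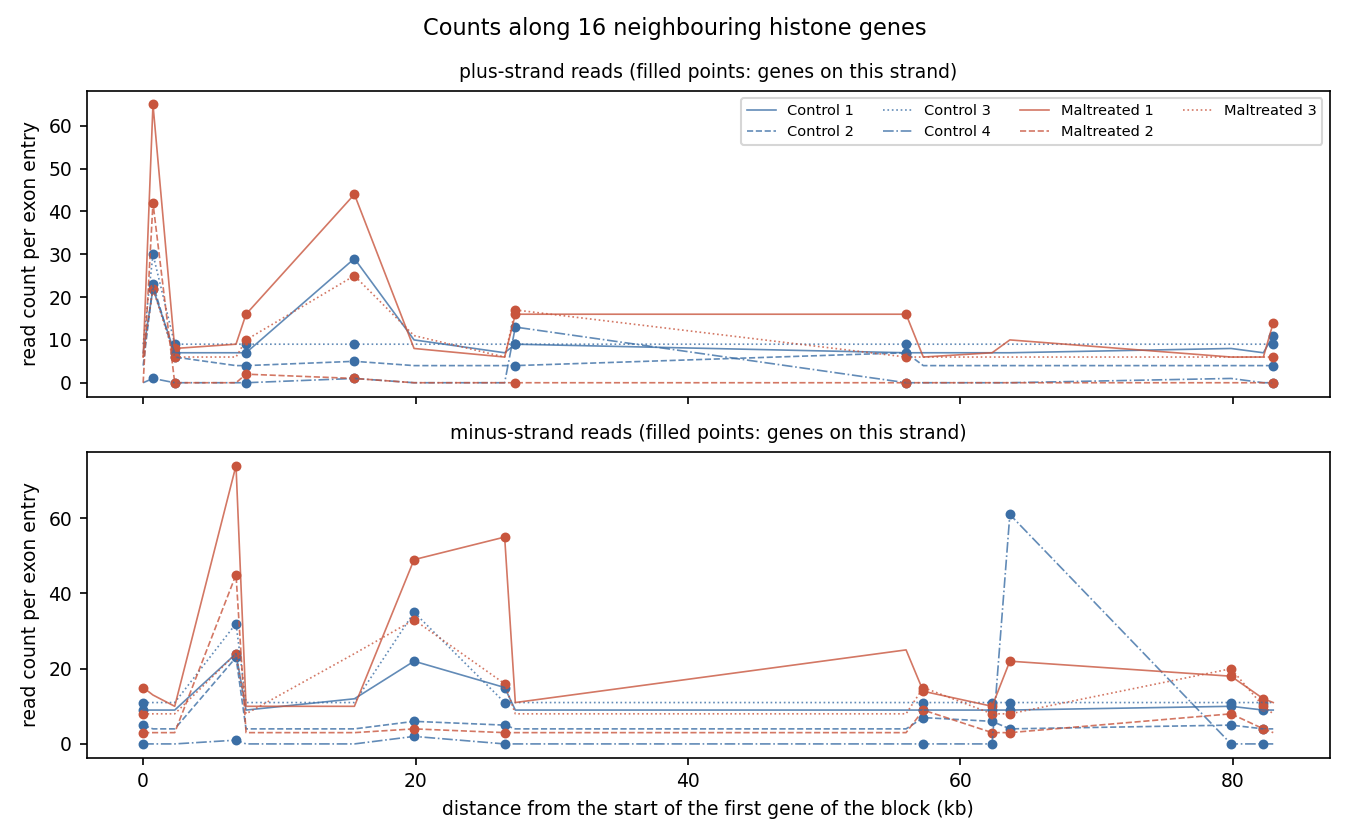
Read count of each exon entry along the 16 neighbouring histone genes against the distance in kb from the start of the first, for plus-strand reads (upper panel) and minus-strand reads (lower panel) in the 7 libraries. Filled points mark entries whose gene lies on that strand. In Control 3 the lines run level at its lowest counts of 9 and 11 through 15 and 14 of the 16 entries. In Maltreated 1 only 5 and 4 entries stand at the lowest count, and the highest counts are 65 at HIST1H2AI and 74 at HIST1H2AJ. HIST1H4L peaks in Control 4, at 61 on the minus strand.

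That common count made up 71.1% of the sense counts of the 16 genes in Control 3, 62.5% in Control 1, 54.2% in Control 2, 48.7% in Maltreated 3, 29.5% in Maltreated 1, 21.3% in Maltreated 2 and 0% in Control 4. For HIST1H3I it was 95.7% and for HIST1H2AM 90.0% of the gene's sense counts, which left 2 and 5 counts above it. HIST1H2AI, HIST1H2AJ and HIST1H4G stood above the common count in all 7 libraries. Taken off, it left 173 of 205 sense counts of HIST1H2AI, 178 of 223 of HIST1H2AJ and 106 of 151 of HIST1H4G. The counts left for HIST1H2AI and HIST1H2AJ, on opposite strands, were equal in every library but Maltreated 1. They were 15, 19, 21 and 1 in the Control libraries, 42 in Maltreated 2 and 16 in Maltreated 3. In Maltreated 1 they were 59 and 64. Whether these genes gave separate signals was not tested. HIST1H4L had 61 of its 118 sense counts in Control 4, against 3 to 22 in the other libraries. The 16 genes held 6.70 to 13.8% of the replication-dependent sense counts per library.

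Over the histone genes in general, the 16 included, counts and covered lengths did not always go together. Among exon entries of all genes with 1 count and at least 600 bases, 56.5 to 69.0% per library were covered over at most 101 bases, while 29.99 to 41.9% were covered from end to end. With 101 bases as the reach of 1 count, 39 of 308 sense values above 0 of the replication-dependent genes (24 genes, 133 counts) covered more bases per count than that. Of these, 15 values in 10 genes belong to the 16 neighbouring genes and 24 values in 14 genes lie outside them. On the antisense strand it was 64 of 192 values (35 genes, 184 of 1298 counts), 25 of them in the 16 genes. The replacement variants had 3 of 70 such sense values and 7 of 61 antisense values, and the germ-line genes 1 of 48 and 5 of 18. HIST1H2AE in Control 2, for example, had 1 sense count listed with a cover of 561 bases, and HIST3H2BB had 1 with a cover of 451 bases in both Control 1 and Control 3. Its neighbours HIST3H2A and HIST3H3, on the other strand, had the same plus-strand counts as HIST3H2BB in Control 1 to 3. These were 1, 2 and 1, with full cover of each gene, so a shared count was not confined to the 16 genes. A full cover of such a gene is therefore not a measure of its depth.

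Antisense counts were 3646 over all members, and their share of the histone counts was 4.32 to 9.97% per library, against 6.15 to 12.1% over all genes. By class it was 1.94 ± 0.794% (SD, n = 4) in Control sperm and 3.796 ± 2.50% (SD, n = 3) in Maltreated for germ-line genes. For replication-dependent genes it was 9.93 ± 3.23% (SD, n = 4) and 6.51 ± 3.15% (SD, n = 3), and for replacement variants 6.44 ± 3.67% (SD, n = 4) and 6.45 ± 0.803% (SD, n = 3). Of the 1298 antisense counts of the replication-dependent class, 662 lay in the 16 genes with a common lowest count. With all libraries together, antisense counts were 4.35% of the counts of the other 46 genes and 31.5% of those of the 16. HIST2H2AA4 is 1 of the 46 and held 10438 of their 13989 sense counts but 80 of their 636 antisense counts. The 4.35% therefore rests largely on this gene. Without HIST2H2AA4 the mean share of the replication-dependent class over the 7 libraries was 20.4%, against 8.46% with it. Among the 60 members with at least 50 counts on both strands together, the share ran from 0 to 69.9% with a median of 16.4%. In 8 members antisense counts were more than sense counts: H2AFY2, HIST1H2AE, HIST1H2AL, HIST1H2BE, HIST1H2BO, HIST1H3B, HIST2H2BF and HIST2H3D. HIST1H2AL, HIST1H2BO and HIST2H3D belong to the 16 genes with a common lowest count on both strands. Per the deposited annotation, exons of 8 members overlap exons of another gene, among them HIST2H2BF with FCGR1A and FCGR1B, and such counts cannot be assigned to 1 gene.

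The comparison of the groups asked whether histone RNA differed between Maltreated and Control sperm. By edgeR's quasi-likelihood test with Benjamini-Hochberg adjustment over 10719 tested genes, 0 genes passed on sense counts (0%), and none of the 24 histone genes that passed the filter on low counts. Those 24 were 6 germ-line, 9 replication-dependent and 9 replacement-variant genes, and the other 58 members had too few counts to be tested. An unadjusted p under 0.05 was found in 191 genes (1.78%) and in 0 histone genes, and the DESeq2 Wald test called 3 genes, none a histone gene. The smallest adjusted p over all genes was 0.999.

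Of the tested histone genes 12 had a higher and 12 a lower fitted level in Maltreated sperm. The median of their log2 fold changes was 0.01, against -0.02 over all tested genes, of which 5220 were higher and 5499 lower. On levels scaled with the fit's TMM factors the groups overlapped in all 24 histone genes, and did not overlap in 385 of all tested genes (3.59%). The common biological coefficient of variation of the fit was 0.858, and the SE of the 24 log2 fold changes ran from 0.34 in H2AFV to 1.6 in H2AFB3. The 5 genes with the highest levels had SE between 0.34 and 0.40.

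**Figure D5:**
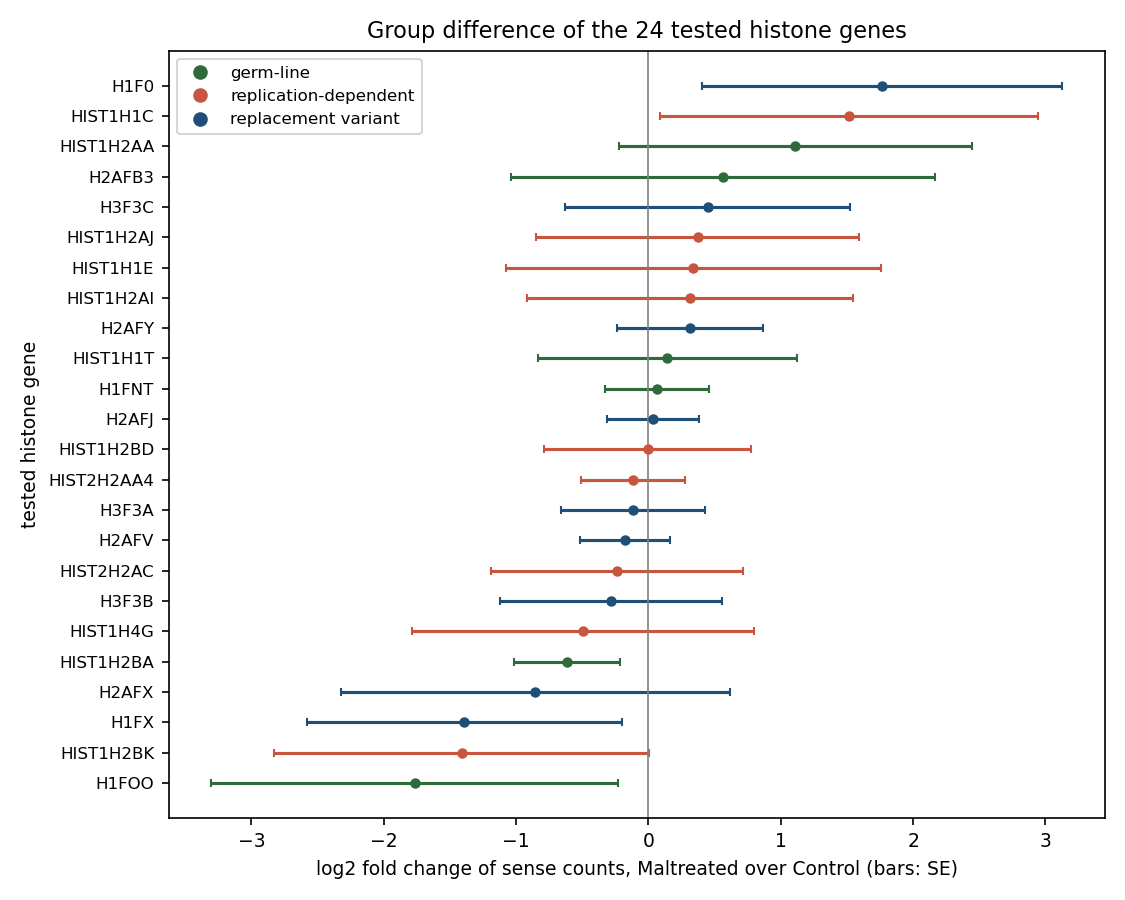
Log2 fold change of sense counts, Maltreated over Control, with its SE as a bar, for the 24 histone genes that passed the filter on low counts, sorted and coloured by class (edgeR quasi-likelihood fit). The values run from -1.76 for H1FOO to 1.77 for H1F0, 4 of the 5 genes with the shortest bars lie between -0.17 and 0.07 and the other, HIST1H2BA, at -0.62, and the classes are mixed along the order.

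On antisense counts 6 histone genes could be tested among 4382 genes: H2AFJ, HIST2H2AA4, HIST1H2BA, H3F3C, H1FX and HIST1H4K. By the same edgeR test 0 genes passed (0%), 110 had an unadjusted p under 0.05 (2.51%) and in 191 the groups did not overlap (4.36%). None of the 6 histone genes was among the latter counts, and the DESeq2 Wald test called 13 genes, none a histone gene. H2AFJ had 86, 47, 87 and 45 antisense counts in the Control libraries and 568, 61 and 155 in the Maltreated libraries (log2 fold change 0.66 ± 1.02, SE). HIST1H2BA had 35, 9, 26 and 0 in Control and 143, 63 and 23 in Maltreated sperm (1.19 ± 1.56, SE).

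Genes that make, carry and remove histones gave no call either. Of 14 genes for transcription and 3' end processing of replication-dependent histone mRNA, 12 were tested, 6 with a higher and 6 with a lower fitted level (median log2 fold change -0.03). NPAT, the coactivator of the histone clusters, had 127 ± 25.6 CPM (SD, n = 4) in Control sperm and 154 ± 1.54 CPM (SD, n = 3) in Maltreated (0.25 ± 0.28, SE). CSTF2, a cleavage factor subunit, had 0.542 ± 0.766 CPM (SD, n = 4) and 5.41 ± 5.70 CPM (SD, n = 3), with 11.7 CPM in Maltreated 2 (3.22 ± 1.67, SE). PAPOLG, a poly(A) polymerase, had 115 CPM in Control 4 and 38.3 to 57.9 CPM in the other libraries (-0.46 ± 0.45, SE). Control 4 is 1 of the 2 libraries rich in leukocyte RNA, and in the other, Maltreated 3, PAPOLG stood at 46.6 CPM. The part of that RNA was not tested.

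Of 25 histone chaperones and deposition factors 23 were tested, 9 higher and 14 lower, with a median of -0.22. On TMM-scaled levels the groups did not overlap in 2 of the 23, against 3.59% of all tested genes: HIRA, which deposits H3.3, and HJURP, the chaperone of centromeric H3, both named after their values were seen. In CPM, HIRA had 27.6 ± 5.70 (SD, n = 4) in Control sperm and 19.3 ± 1.28 (SD, n = 3) in Maltreated (-0.54 ± 0.49, SE) on this scale, with Control 1, at 19.6, among the Maltreated libraries. HJURP had 9.49 ± 3.86 (SD, n = 4) and 4.67 ± 0.0425 (SD, n = 3), with a log2 fold change of -1.04 ± 0.84 (SE). NAP1L4, a chaperone of H2A and H2B, had 299 ± 130 CPM (SD, n = 4) in Control sperm and 187 ± 51.3 CPM (SD, n = 3) in Maltreated (-0.71 ± 0.36, SE), with 475 CPM in Control 4. ZNHIT1, a subunit of the complex that deposits H2A.Z, had 31.4 CPM in Control 4 and 4.998 to 12.5 CPM in the other libraries (-1.11 ± 0.84, SE). MCM2, a helicase subunit that also binds H3 and H4, had 42.9 CPM in Control 4 and at most 3.74 CPM in the other libraries (-2.31 ± 1.63, SE). In Maltreated 3, the other library rich in leukocyte RNA, NAP1L4, ZNHIT1 and MCM2 stood at 219, 7.20 and 3.74 CPM. The part of leukocyte RNA in the Control 4 values was not tested.

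Of 22 listed genes of the exchange of histones for protamines 21 were tested, 10 higher and 11 lower (median -0.08). The 3 with the smallest unadjusted p were KDM3A, a histone demethylase needed for protamine expression (0.74 ± 0.61, SE), RNF8, a histone ubiquitin ligase (-0.76 ± 0.65, SE), and KAT8, an H4 acetyltransferase (1.29 ± 1.24, SE). KDM3A had 43.8 CPM in Maltreated 3 and 8.46 to 20.3 CPM in the other libraries, and RNF8 had 64.1 CPM in Control 4 and 11.5 to 20.9 CPM in the others. Each was high in only 1 of the 2 libraries rich in leukocyte RNA. KDM3A stood at 8.46 CPM, its lowest value, in Control 4, and RNF8 at 19.8 CPM in Maltreated 3. The part of leukocyte RNA was not tested. Among 20 genes of DNA replication and S phase, the phase in which replication-dependent histones are made, 16 were tested, 9 higher and 7 lower (median 0.21). All 20 of these genes together summed to between 165 and 204 CPM in Control and between 154 and 247 CPM in Maltreated sperm. Besides MCM2, the genes with the smallest unadjusted p were CDK2 (2.55 ± 1.5, SE) and POLA1, a DNA polymerase subunit (1.29 ± 1.03, SE). In these 4 lists no gene passed the test and none had an unadjusted p under 0.05 by the edgeR test.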

How the data were processed

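The tools named in the submitters' processing notes are bedtools, STAR and featureCounts, without versions. The genome build and the treatment of reads with several matches are not given in the sources used here, and coordinates are those of the deposited files, written from 1. Per the file layout, the authors deposited for each library and strand the count of reads on every exon entry and the covered fraction of that entry. The deposited table of the whole series gives counts and covered fractions per gene on the sense and antisense strand, and its counts equalled the sums over exon entries, with 0 differing values. RTN3 and ZC3HAV1, listed on both strands, were left out, which leaves 18282 genes. Of the 82 histone symbols, 1 is current and 29 are synonyms in the RefSeq table supplied for T2T-MMU8v2.0, which was used for names alone.

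Sense and antisense counts were tested separately over all genes with edgeR 4.0.16 (R 4.3.3), TMM factors, filterByExpr (minimum count 10, minimum total 15) and the quasi-likelihood F test on group with 5 residual degrees of freedom. Benjamini-Hochberg adjustment ran over all genes of a fit, with a threshold of 0.05. DESeq2 1.42.0 was an alternative. The script was tested on simulated data. The members, classes, gene lists and alternatives were chosen with earlier results of these data known. Named with full values were the 8 members with the highest mean CPM, the 3 with the smallest unadjusted p in each direction, the 2 with the smallest in the antisense fit, and the replacement variants and germ-line histones. Of each list, the 3 with the smallest unadjusted p were named. HIST2H2AC, the genes of the 16-gene region and those with 1-count covers or more antisense than sense counts were chosen after their values were seen. Counts come from reads without molecular identifiers.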

Additional observations from a re-analysis of the deposited data

Results flagged for a closer look

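In groups of 4 libraries a single library can lie far from the other 3. The gap to the nearest of the others, as a part of the group's range, was set against Dixon's 95% critical value in the Control group for the named genes and class measures. Of 31 groups, 7 passed it, where chance passes about 1 in 20. H2AFV stood at 79.6 CPM in Control 1 against 126 to 134 CPM in the other Control libraries. H1FNT stood at 107 CPM in Control 3 against 58.5 to 64.0 CPM. H1FX stood at 20.1 CPM in Control 4 against 1.93 to 2.67 CPM, and H3F3B at 18.8 CPM in Control 3 against 8.84 to 9.41 CPM. Of the low genes, H2BFWT stood at 0.724 CPM in Control 2, which is 4 counts, and H2BFM at 3.50 CPM in Control 3, which is 21 counts, 7 on each of 3 exons, with no count in the other Control libraries. These 2 pass whatever their value, since the other 3 libraries are at 0, and cannot be set against the chance rate. Antisense counts made up 11.9% of the counts of the replacement variants in Control 4 (exact 95% binomial interval 10.5 to 13.4%, counting error only) against 4.26 to 5.08% in the other Control libraries.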

How the results depend on the processing

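No histone gene was called on sense or antisense counts under any alternative run. Over all genes 0 were called on sense counts in every edgeR alternative, while the DESeq2 Wald test called 3, CA11, CHIA and PPP2R2C, all lower in Maltreated sperm. On antisense counts 0 were called in every filtered edgeR alternative, 24 with no filter on low counts and 13 with the DESeq2 Wald test. The cause was not tested. The replication-dependent mean antisense share moved from 8.46 to 20.4% without HIST2H2AA4, its most abundant gene. With the replicate number as a block, 0 genes were called on sense and 0 on antisense counts. Same-numbered libraries did not deviate together (correlations of 0.0749, 0.00993 and -0.0194), so the numbers were not taken as pairs. Under that replicate block the log2 fold changes of H2AFJ (-0.14), H1FNT (-0.041), H1FX (0.15) and H1FOO (0.061) changed sign. Without Control 4 and Maltreated 3 together those of H2AFJ (-0.034), H2AFY (-0.32), HIST1H2BD (0.15) and HIST1H1T (-0.13) did. That of HIST1H2BD was also 0.0064 with total-count scaling, 0.017 with no filter and 0.046 with antisense counts added. Leaving out each library in turn, the log2 fold changes that changed sign ran from -0.27 to 0.28 in H2AFJ, -0.38 to 0.11 in HIST2H2AA4, -0.32 to 0.055 in H2AFV, -0.21 to 0.31 in H1FNT, -0.19 to 0.54 in H2AFY, -0.28 to 0.12 in H3F3A, -0.89 to 0.34 in HIST1H2BD, -1.70 to 0.16 in H1FX, -0.76 to 0.16 in H3F3B, -0.19 to 0.70 in HIST1H1T and -0.68 to 1.15 in H2AFB3. Those of HIST1H2BA kept their sign, from -0.82 to -0.44. Counting each distinct exon once changed the sign of none of the 24 tested histone genes. Taking off the common lowest count of the 16-gene region left 23 to test, none with another sign, and HIST1H4G no longer passed the filter. It moved HIST1H2AI from 0.32 to 0.64 and HIST1H2AJ from 0.37 to 0.66, genes whose remaining counts were mostly equal. That alternative and the scaling of antisense counts to sense library sizes were chosen after seeing the data. With 4 against 3 libraries and few counts per gene, 58 of 82 members did not pass the filter on low counts.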
